A study of Mus musculus with 2 samples.

Results

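The *Hox* genes of adult lumbar dorsal root ganglion (DRG) cells were examined. The 39 members were the genes whose symbol is *Hoxa*, *Hoxb*, *Hoxc* or *Hoxd* followed by a number and nothing else, out of 32245 genes counted. The names alone chose them, and their antisense and other noncoding neighbours are described separately. The data came from 2 libraries of single cells from the L4 and L5 DRGs of naive female C57BL/6 mice at 3 months of age, with no injury, treatment or transgene. The ganglia were dissociated with papain and collagenase, and live cells were sorted before capture on the 10x Genomics platform. How many mice went into each library is not given in the sources used here, so p-values measure the spread between these 2 samples.

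*Hox* genes encode homeodomain transcription factors that lie in 4 clusters, HoxA, HoxB, HoxC and HoxD. The number in a gene name is its paralog group, and genes of the same number in different clusters descend from a common ancestor. Within a cluster the low numbers lie at the 3′ end and the high numbers at the 5′ end. In the embryo the low numbers are used from the hindbrain backward and the high numbers only further toward the tail, so the set of *Hox* genes in a cell records its level along the body axis. Many adult cells keep part of that set. The cells of a DRG have different embryonic origins. Sensory neurons, satellite glial cells (SGCs) and Schwann cells come from the neural crest, endothelial and mural cells from mesoderm, and macrophages from blood lineages. Fibroblasts were placed with mesoderm, although some fibroblasts inside nerves are known to come from the neural crest, and comparisons without them are given. No lineage was traced in these cells.

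On the GRCm38 assembly the 11 HoxA members lie on chromosome 6, the 10 HoxB members on chromosome 11, the 9 HoxC members on chromosome 15 and the 9 HoxD members on chromosome 2. Promoter sequences were matched for 22 members with 24 start sites, from RefSeq on GRCm38.p6. HoxD promoters are shown as examples of the cluster whose tested genes were all lower in SGCs than in neurons, and *Hoxa7* because it was the highest member in SGCs. Each runs from 250 bases before to 50 bases after the start of transcription, with capitals for matches on either strand to 4 motifs. The motifs searched were the TATA box written TATAAA, the CCAAT box in these letters, the GC box written GGGCGG, and the E box written CACGTG.
Hoxd1: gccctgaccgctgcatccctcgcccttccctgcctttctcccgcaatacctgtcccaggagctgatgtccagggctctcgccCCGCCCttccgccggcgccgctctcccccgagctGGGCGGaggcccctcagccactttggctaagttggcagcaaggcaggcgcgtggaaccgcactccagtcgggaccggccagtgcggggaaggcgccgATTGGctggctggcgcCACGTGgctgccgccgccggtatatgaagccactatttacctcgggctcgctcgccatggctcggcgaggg
Hoxd4: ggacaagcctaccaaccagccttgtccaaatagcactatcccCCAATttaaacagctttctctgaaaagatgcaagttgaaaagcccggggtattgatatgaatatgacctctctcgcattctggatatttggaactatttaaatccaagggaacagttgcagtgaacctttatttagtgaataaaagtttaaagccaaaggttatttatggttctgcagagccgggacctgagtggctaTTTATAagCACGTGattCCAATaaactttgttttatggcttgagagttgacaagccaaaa
Hoxd8: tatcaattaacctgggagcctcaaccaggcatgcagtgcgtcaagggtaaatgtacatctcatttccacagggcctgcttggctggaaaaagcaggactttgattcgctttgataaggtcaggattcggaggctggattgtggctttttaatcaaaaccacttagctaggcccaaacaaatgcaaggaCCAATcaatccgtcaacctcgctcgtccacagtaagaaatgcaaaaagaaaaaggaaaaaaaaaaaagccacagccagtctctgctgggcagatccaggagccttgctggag
Hoxd9: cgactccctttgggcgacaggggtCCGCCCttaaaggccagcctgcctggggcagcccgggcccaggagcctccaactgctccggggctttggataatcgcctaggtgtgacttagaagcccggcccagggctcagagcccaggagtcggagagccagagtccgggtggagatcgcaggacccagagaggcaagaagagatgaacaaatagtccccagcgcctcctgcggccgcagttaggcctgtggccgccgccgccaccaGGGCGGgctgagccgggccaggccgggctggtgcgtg
Hoxd10: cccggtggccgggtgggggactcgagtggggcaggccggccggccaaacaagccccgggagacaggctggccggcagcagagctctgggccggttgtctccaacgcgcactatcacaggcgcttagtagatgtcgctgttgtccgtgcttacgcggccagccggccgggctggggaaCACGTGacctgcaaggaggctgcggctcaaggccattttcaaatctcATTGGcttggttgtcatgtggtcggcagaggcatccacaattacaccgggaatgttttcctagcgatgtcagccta
Hoxa7: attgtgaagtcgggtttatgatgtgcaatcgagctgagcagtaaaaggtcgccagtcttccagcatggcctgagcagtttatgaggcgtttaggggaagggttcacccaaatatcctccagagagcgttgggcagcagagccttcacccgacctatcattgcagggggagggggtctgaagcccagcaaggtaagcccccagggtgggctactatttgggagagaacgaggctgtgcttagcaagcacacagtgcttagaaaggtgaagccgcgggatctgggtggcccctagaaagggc
The windows lie at chr2:74762730-74763029 for *Hoxd1*, chr2:74721728-74722027 for *Hoxd4*, chr2:74704365-74704664 for *Hoxd8*, chr2:74697513-74697812 for *Hoxd9* and chr2:74691641-74691940 for *Hoxd10*, all on the plus strand, and at chr6:52218524-52218823 on the minus strand for *Hoxa7*. Of the 24 *Hox* windows, 4 held the TATA box, 15 the CCAAT box, 10 the GC box and 5 the E box, against 13.6%, 37.4%, 35.7% and 7.15% of all 32851 windows. The median number of CG dinucleotides was 14.5 in the *Hox* windows and 7 in all windows. The *Hoxd1* window held 29 and the *Hoxd4* window 4, so members of 1 cluster differed widely, and the *Hoxa7* window matched none of the 4 motifs. A match is a run of letters and not a shown binding site.

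The libraries held 119101743 and 128668771 unique molecular identifiers (UMIs, each a captured RNA molecule). After filtering, 16901 cells were kept, and 14917 of them (88.3%) fell in 8 types named by the study's marker pairs. The pair of each type was highest in that type, except that *L1cam* stood at nearly the same level in non-myelinating Schwann cells and neurons, 206 and 204 CPM (counts per 1000000 UMIs of the summed profile). UMIs were summed per sample and type into 16 profiles of 2207630 to 56256144 UMIs. By the share of empty-droplet RNA estimated in each profile, at most 4.07%, free RNA accounted for 7.21 to 14.2 CPM of the *Hox* total of a profile. The 2 samples differed by more than counting noise in every type, with a chi-square per degree of freedom of 2.25 to 6.79 over all genes.

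The neurons of the 2 libraries shared cell barcodes, which bears on each neuronal value below. Of 135 barcodes called in both libraries, 110 were neurons in both. In 59 of these pairs one copy held at least 10 times the UMIs of the other, and the shallower copy held a median of 0.533% of the UMIs of the deeper. The deeper copy of the pair was the most correlated of 109 deep neurons in 59 of 59 cases. The other 51 pairs were shallow in both libraries, at most 2004 UMIs. The neurons formed a deep cluster of 109 cells (55 and 54 cells, median 102132 UMIs) and a shallow cluster of 419 cells (305 and 114 cells, median 823 UMIs). The deep cells held 94.3% and 96.1% of the neuronal UMIs of replicates 1 and 2. Leaving out the shallow copies changed no count of *Hox* genes passing a test, and the values without any shared barcode are given beside the neuronal results.

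Transcripts of 35 of the 39 members were detected, with 74628 UMIs in all. *Hoxa13*, *Hoxc12*, *Hoxd12* and *Hoxd13* from the most posterior paralog groups had no UMI in any of the 16 profiles. A further 4 members had too few UMIs to test, *Hoxb1* with 4, *Hoxb13* with 1, *Hoxc11* with 9 and *Hoxc13* with 1. The remaining 31 passed the filter of at least 10 UMIs in at least 2 profiles. Of these, 23 reached 10 CPM in both samples of at least 1 type. The 8 tested members that did not included *Hoxa2*, *Hoxa4*, *Hoxa6*, *Hoxa11*, *Hoxd1*, *Hoxd10* and *Hoxd11*. A member enters the 23 through the type where it is high, so the tally of highest types is a description. Of the members left out, *Hoxd1*, *Hoxd10* and *Hoxd11* had their highest mean in neurons, and *Hoxa2*, *Hoxa4*, *Hoxa6* and *Hoxa11* in fibroblasts. Among the 23, the highest type was mesodermal for 21, namely fibroblasts for 10, endothelial cells for 7 and mural cells for 4. The others were *Hoxa7*, highest in SGCs, and *Hoxb5*, highest in neurons. For 18 of the 23 the 2 samples of the highest type lay above both samples of the next. This count was not made for all genes, so it is not a result about *Hox* genes in particular.

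**Figure D1:**
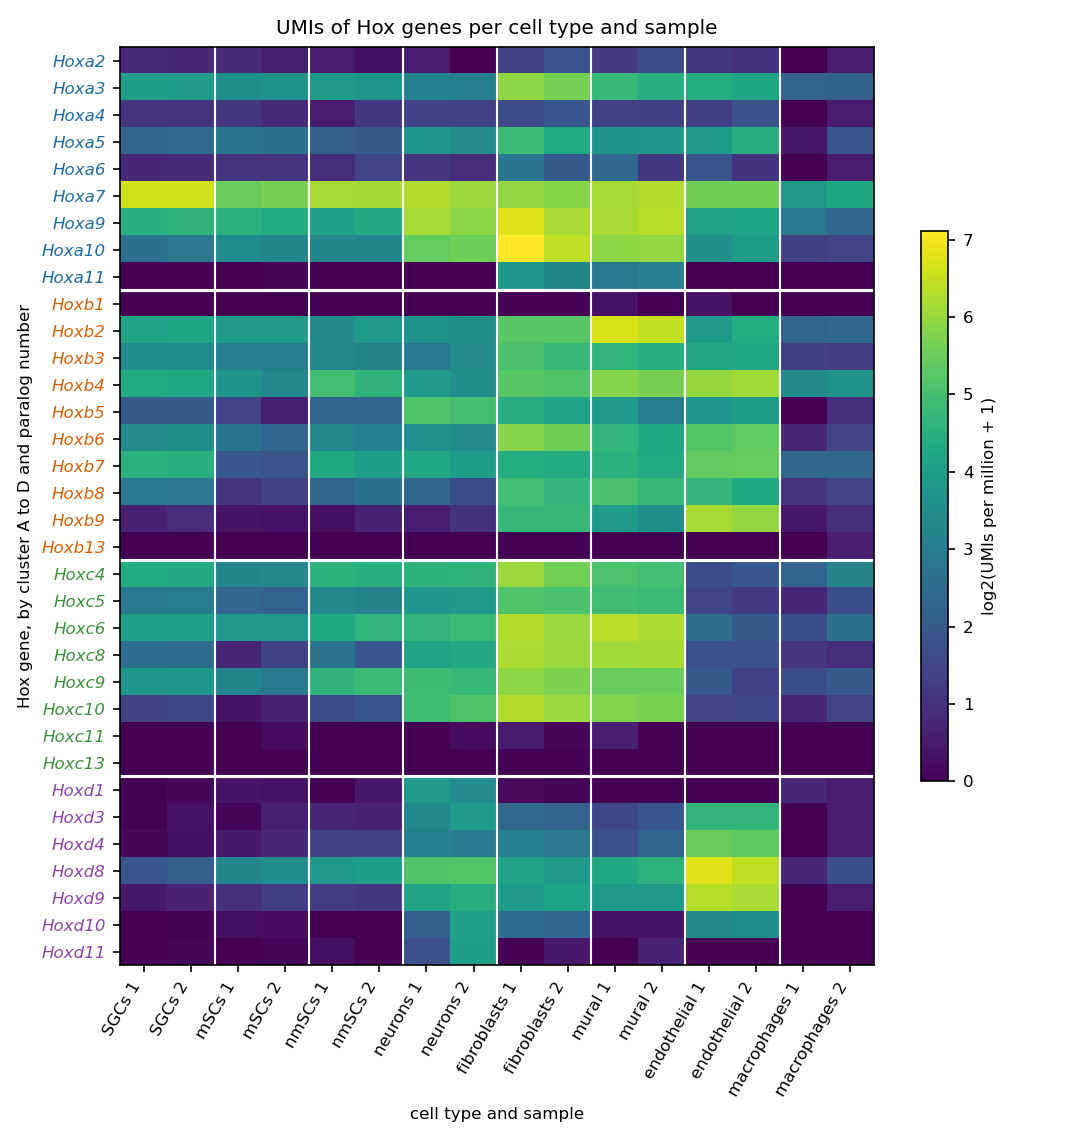
Level of *Hox* genes in each of the 16 profiles, with genes in rows by cluster and paralog number, types and replicates in columns, and colour for log2(CPM + 1). Dark is low and yellow is high. The HoxC rows are dark in endothelial cells, the HoxD rows are dark in SGCs, and macrophages are the darkest type over most rows.

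The total *Hox* level differed between most types without overlap of their samples. Values are given for replicate 1 and then replicate 2. Fibroblasts were highest at 1114 and 902 CPM, followed by mural cells at 895 and 846 CPM and endothelial cells at 678 and 652 CPM. The fibroblast and mural values did not overlap, but the gap was narrow (902 against 895 CPM). It was smaller than the spread between the fibroblast samples. The fibroblasts held 2 clusters, described below, and the one led by *Apod* stood at 644 and 623 CPM, below mural and endothelial cells. Neurons stood at 536 and 539 CPM, above every glial type. Non-myelinating Schwann cells at 300.2 and 300.4 CPM and SGCs at 298 and 301 CPM could not be ordered. Myelinating Schwann cells were lower at 186 and 185 CPM, and macrophages lowest at 59.6 and 83.8 CPM. Empty droplets, which hold free RNA, carried 385 and 346 CPM.

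The clusters contributed unequal shares of these totals. HoxA genes held 48.8% and 49.3% of the *Hox* UMIs of SGCs (exact binomial 95% interval of replicate 1, 48.0 to 49.5%), 51.1% and 52.5% in myelinating Schwann cells and 16.8% and 18.5% in endothelial cells. HoxD genes held 1.12% and 1.56% in SGCs, 16.4% and 21.6% in neurons and 39.2% and 35.9% in endothelial cells (intervals 37.2 to 41.3% and 34.0 to 37.8%). HoxC genes held 34.7% and 35.9% in fibroblasts and 34.9% and 35.4% in mural cells, but 2.43% and 2.03% in endothelial cells (intervals 1.83 to 3.16% and 1.51 to 2.67%). In the cells left after called doublets were removed, the mean HoxC share of endothelial cells was 0.696%. The endothelial profiles carried 302 and 249 CPM summed over 9 mural markers and 101 and 249 CPM over 8 fibroblast markers. Non-myelinating Schwann cells differed from SGCs in a higher HoxC share, 27.4% and 29.0% against 20.4% and 20.2%, and a lower HoxA share, 38.6% and 38.9%. These intervals cover counting error only, and no test was run on the shares.

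Paralog number separated the types in another way. Groups 1 to 3 held a mean of 9.44% (neurons) to 18.5% (myelinating Schwann cells) of *Hox* UMIs. Groups 4 to 8 held more in SGCs (70.9% ± 0.570, SD, n = 2) and non-myelinating Schwann cells (69.9%) than in fibroblasts (49.3%), neurons (52.4%) and mural cells (52.7%). Groups 9 to 13 held 38.1% in fibroblasts and 38.2% in neurons, 30.6% in mural cells and 28.0% in endothelial cells, against 14.8% ± 0.853 in SGCs, 18.6% in non-myelinating and 21.6% in myelinating Schwann cells. In SGCs paralog group 7 alone held 39.6%. Nothing above group 11 contributed more than a single UMI in any gene.

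**Figure D2:**
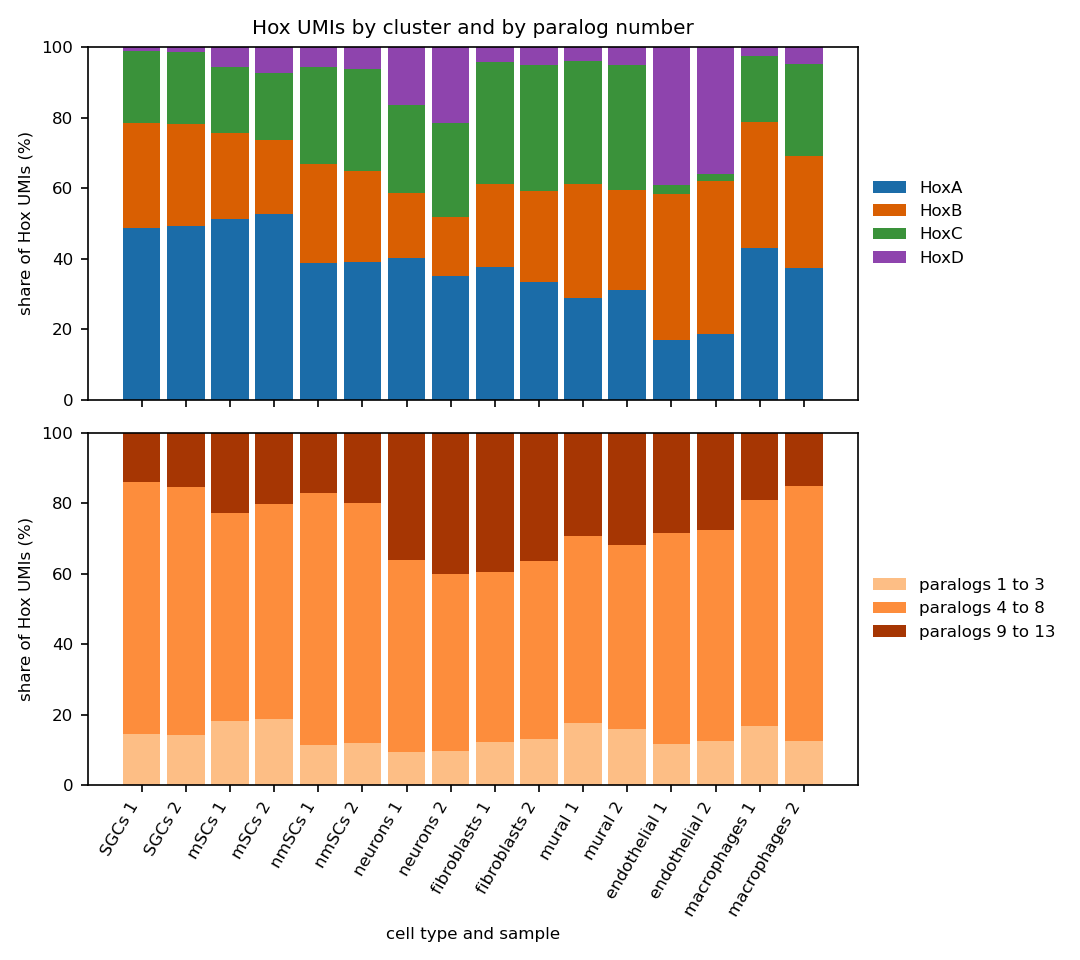
Share of the *Hox* UMIs of each profile by cluster and by paralog band, as stacked bars that sum to 100%, with 1 bar for each sample of each type. Endothelial bars are nearly without HoxC and hold 39.2% and 35.9% HoxD, and SGC bars are 49.0% HoxA on average with 1.12% and 1.56% HoxD.

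The *Hox* genes were then compared between neural crest types (SGCs, both Schwann types and neurons) and the mesodermal types (fibroblasts, mural and endothelial cells), with each type weighted equally. In edgeR's quasi-likelihood test 24 of 31 members were lower in the crest types and 2 were higher, while 29.3% of all 17899 genes tested were lower and 29.8% higher. The median log2 fold change of the members was -1.55, against 0.04 for all genes tested. Each of the 8 tested HoxB genes was lower, as were 7 of 10 HoxA, 4 of 6 HoxC and 5 of 7 HoxD genes. With neurons left out of the crest types, 25 members were lower and 1 higher (28.0% and 28.5% of all genes). With fibroblasts left out of the mesodermal types, 20 were lower and 4 higher (27.6% and 29.2%). Those 4 were *Hoxa7*, *Hoxc4*, *Hoxc9* and *Hoxd1*, so the call of *Hoxc4* and *Hoxc9* against mesoderm rested on which types stood for it. *Hoxd1* had 0 UMIs in mural and endothelial cells, and with those set to 3 UMIs per library its log2 fold change was -0.87 here and 0.07 with fibroblasts included, so both of its calls rest on the prior count.

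Among the members lower in crest types, *Hoxb9*, a posterior gene that takes part in patterning the thoracic skeleton, showed the lowest adjusted p. It stood at 71.4 and 61.3 CPM in endothelial cells, 25.9 and 25.7 CPM in fibroblasts and 14.1 and 10.7 CPM in mural cells. In the 4 crest types it ranged from 0.231 to 1.06 CPM, so the crest and mesodermal profiles did not overlap. The log2 fold change was -5.70 ± 0.17 (SE, adjusted p = 1.02e-14). *Hoxd9*, *Hoxb8*, *Hoxb6* and *Hoxb4* followed with log2 fold changes of -3.61, -2.90, -2.08 and -1.63. *Hoxb8* ranged from 17.7 to 32.7 CPM in the mesodermal profiles and from 1.09 to 6.49 CPM in the crest profiles. *Hoxb6* showed the same separation, 18.3 to 55.7 CPM against 3.89 to 11.1 CPM. *Hoxb4* ran from 34.9 to 68.8 CPM in mesodermal and from 8.80 to 30.7 CPM in crest profiles, which did not overlap either.

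*Hoxa7* went the other way with a small difference. This gene of the trunk region was detected at 10 CPM or more in every profile. It stood at 96.3 and 96.8 CPM in SGCs, 71.8 and 70.5 CPM in non-myelinating Schwann cells, 76.9 and 65.5 CPM in neurons and 43.0 and 49.0 CPM in myelinating Schwann cells. Mural cells held 72.3 and 75.8 CPM, fibroblasts 60.9 and 56.3 CPM and endothelial cells 47.0 and 46.3 CPM, so the crest and mesodermal ranges overlapped. The difference of the means was 0.26 ± 0.058 on the log2 scale (adjusted p = 7.51e-04). Only SGCs lay clear above every other type. *Hoxa7* was not called in crest against mesodermal types when the cutoff on UMIs per cell was applied to neurons too (0.12). *Hoxd1*, the second member called higher in crest types, was a neuronal gene described below, with 0 UMIs in the 4 mural and endothelial profiles on which that call depends.

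**Figure D3:**
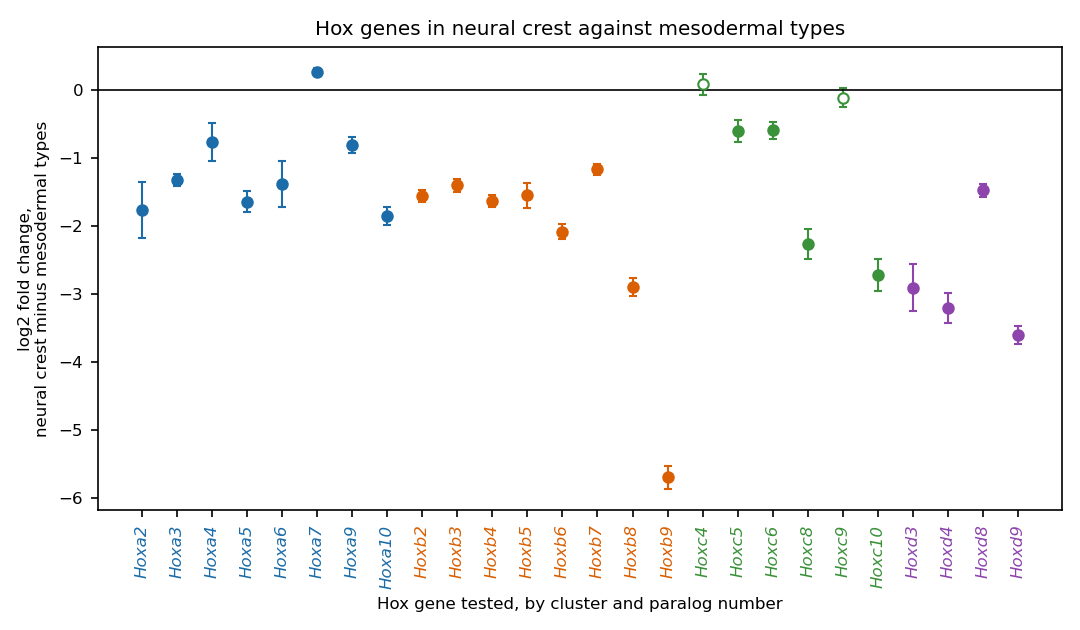
Log2 fold change of neural crest types minus mesodermal types for tested *Hox* genes by cluster, with bars for the standard error and filled points for genes that passed the test at an adjusted p of 0.05. The 4 tested members with a compared type at 0 UMIs, *Hoxa11*, *Hoxd1*, *Hoxd10* and *Hoxd11*, are left out because their fitted changes depend on the prior count, and every HoxB point lies below 0.

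SGCs, the glia that wrap neuronal cell bodies, had 3 members above the mean of the other 7 types and 9 below it (31.1% and 25.1% of all genes), and a member median of -0.24. Here and below, the mean of other types is taken on the log scale. A member can therefore be called higher in a type while several other types stand above that type. Fitted changes of genes with 0 UMIs in a type depend on the prior count, and with these set to a bound of 3 UMIs per library the median was -0.43. The higher ones were *Hoxa7* (log2 fold change 1.08 ± 0.064), *Hoxb7* (0.90 ± 0.086) and *Hoxc4* (0.55 ± 0.11). *Hoxc4*, at a mean of 19.3 CPM in SGCs, still lay below fibroblasts, mural cells, neurons and non-myelinating Schwann cells. *Hoxb7* stood at 22.3 and 21.6 CPM in SGCs but at 2.87 and 2.59 CPM in myelinating Schwann cells. Of the lower ones, 4 were HoxD genes. *Hoxd8* stood at 2.75 and 3.36 CPM in SGCs (-2.21 ± 0.20), *Hoxd9* at 0.398 and 0.640 CPM (-3.18) and *Hoxd4* at 0.108 and 0.196 CPM (-3.99). *Hoxd8* and *Hoxd4* were still called lower after the estimated empty-droplet RNA was subtracted. *Hoxc10*, a lumbar-level gene important for limb-innervating motor neurons, was also low at 1.66 and 1.85 CPM (-1.66), as was *Hoxa10* at 5.48 and 6.11 CPM (-1.48).

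Myelinating Schwann cells, which form the myelin sheath, had 22 members below the mean of the other types and 0 above (25.7% and 26.4% of all genes), and the median was -0.80, or -0.97 at the bound. No member was higher at an unadjusted p under 0.05 or in DESeq2 either. All 8 HoxB and all 6 HoxC genes tested were lower. The lowest adjusted p belonged to *Hoxb7* (-2.64 ± 0.16), then *Hoxc10* at 0.297 and 0.556 CPM (-4.05 ± 0.33), *Hoxb4* at 11.9 and 8.80 CPM (-1.32), *Hoxc8* at 0.693 and 1.76 CPM (-2.82) and *Hoxb8* at 1.09 and 1.58 CPM (-2.59). Their highest members per exonic kilobase were *Hoxa7* and then *Hoxc6*, the latter at 5.50 CPM per kilobase.

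Non-myelinating Schwann cells, which ensheathe thin unmyelinated axons, had 3 members above and 9 below the mean of the other types (19.3% and 17.8% of all genes), with a median of -0.59, which was -0.27 in replicate 1 alone and -0.48 in replicate 2 alone. *Hoxc9*, which represses forelimb-level *Hox* genes in motor neurons, was the clearest of the higher ones at 23.5 and 27.8 CPM (0.94 ± 0.13, adjusted p = 1.57e-05), against a mean of 12.8 ± 0.278 CPM (SD, n = 2) in SGCs. *Hoxa7* (0.32 ± 0.082) and *Hoxc4* (0.51 ± 0.16) were also higher, but *Hoxa7* was not called with clusters made at resolution 0.4 (0.19) nor *Hoxc4* with clusters made on UMI totals (0.44). The lower ones included *Hoxb9* (-2.92, not called without shared barcodes at -2.06), *Hoxb2* at 9.69 and 13.3 CPM (-0.79), *Hoxc10* at 2.08 and 2.82 CPM (-1.36), *Hoxa9* at 15.9 and 18.7 CPM (-0.90) and *Hoxa5* at 3.46 and 3.02 CPM (-1.43). Over the 39 genes their levels, as log2(CPM + 1), were most like those of SGCs (r = 0.966). This r is across genes that are not independent and is a description.

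Neurons had 18 members above the mean of the other types and 5 below (36.3% and 32.3% of all genes), with a median of 0.68, or 0.66 at the bound, and of 1.11 in replicate 1 alone and 0.61 in replicate 2 alone. All 7 tested HoxD genes and all 6 tested HoxC genes were higher, while 4 of 8 HoxB genes were lower. By mean CPM each of these HoxC genes was nevertheless lower in neurons than in fibroblasts and in mural cells. *Hoxc6*, for example, stood at 25.7 CPM in neurons and 77.9 CPM in mural cells. Without any barcode shared between the libraries, which left 250 and 57 neurons, 15 were higher and 3 lower. With the UMI cutoff applied to neurons too, which left 438 mostly shallow cells, 6 were higher and 2 lower. *Hoxc10* stood at 29.3 and 34.2 CPM in neurons (2.90 ± 0.13, adjusted p = 2.00e-12), at least 10 times its level in each glial profile. *Hoxb5*, an upper-trunk gene of its cluster, was highest in neurons at 34.1 and 31.4 CPM (2.96 ± 0.20), above 20.9 and 16.3 CPM in fibroblasts. *Hoxd8* stood at 34.9 and 35.1 CPM (1.61 ± 0.13) and *Hoxd9* at 16.9 and 20.8 CPM (2.50 ± 0.18), and with that cutoff neither was called (0.39 and 1.33). The lower members were anterior and central, *Hoxb4* at 13.5 and 10.2 CPM (-1.17), *Hoxa3* at 7.88 and 7.59 CPM (-1.05), *Hoxb2* at 11.4 and 10.4 CPM (-0.83) and *Hoxb8* (-1.26), with *Hoxb9* (-1.94) at the posterior end. *Hoxa3* and *Hoxb8* were not called without shared barcodes (-0.55 and -0.89) or with the cutoff, nor *Hoxb4* with the cutoff (-1.10).

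*Hoxd1*, which in mouse is needed for the wiring of pain-sensing neurons, was found almost wholly in neurons. Its level was 13.3 and 9.71 CPM in neurons and at most 0.764 CPM in any other profile. Mural and endothelial cells had 0 UMIs, which by 3 UMIs per library makes neurons at least 13.5-fold higher than either. Its 83 and 55 neuronal UMIs lay in 17 and 15 neurons, and the cell with the most held 16.9% and 14.5% of them. Among neurons of at least 3000 UMIs (65 and 67 cells), 17 and 13 carried it.

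*Hoxd10* and *Hoxd11*, genes of the hindlimb level, differed between the 2 neuronal samples. *Hoxd10* stood at 3.54 and 15.7 CPM and *Hoxd11* at 2.41 and 14.5 CPM, so replicate 2 was far above replicate 1 for both. The transcripts came from few cells. In replicate 1, 5 of the 65 neurons of at least 3000 UMIs had *Hoxd10*, 4 had *Hoxd11* and 3 had both. In replicate 2, 6 of 67 had *Hoxd10*, 7 had *Hoxd11* and 6 had both, and 89 of 89 *Hoxd10* UMIs lay in cells with *Hoxd11*. Endothelial cells held *Hoxd10* at 9.15 and 10.0 CPM and no UMI of *Hoxd11*, so the neuronal level of *Hoxd11* was at least 9.88-fold higher by the means, at least 2.63-fold in replicate 1 and at least 18.2-fold in replicate 2.

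SGCs were set against neurons directly, as crest-derived cells that touch each other in the ganglion. Here 7 members were higher in SGCs and 16 in neurons (32.2% and 34.4% of all genes), and the median was -0.59, or -0.74 at the bound. Without any shared barcode 4 were higher, and with the UMI cutoff applied to neurons too 3 were higher and 9 lower. Each of the 7 tested HoxD genes was lower in SGCs, while 5 of 8 HoxB genes were higher and 1 lower. Higher in SGCs were *Hoxa3* (15.0 and 14.1 against 7.88 and 7.59 CPM, 1.08 ± 0.16), *Hoxa7* (0.61 ± 0.093), *Hoxb2* (17.0 and 17.0 against 11.4 and 10.4 CPM, 0.81), *Hoxb4* (0.81) and *Hoxb7* (0.60). Without shared barcodes *Hoxa3* (0.58) and *Hoxb7* (0.48) were not called, nor with the cutoff *Hoxa3* (0.60) and *Hoxb4* (0.74). Lower were *Hoxc10* (-3.99 ± 0.15), *Hoxd9* (-4.98 ± 0.21), *Hoxd8* (-3.34 ± 0.15), *Hoxd4* (-5.29 ± 0.34) and *Hoxa10* (-2.75 ± 0.18). *Hoxa10*, which acts in lumbar vertebrae and motor neurons, stood at 42.3 and 45.9 CPM in neurons and at most 10.1 CPM in the glial profiles.

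**Figure D4:**
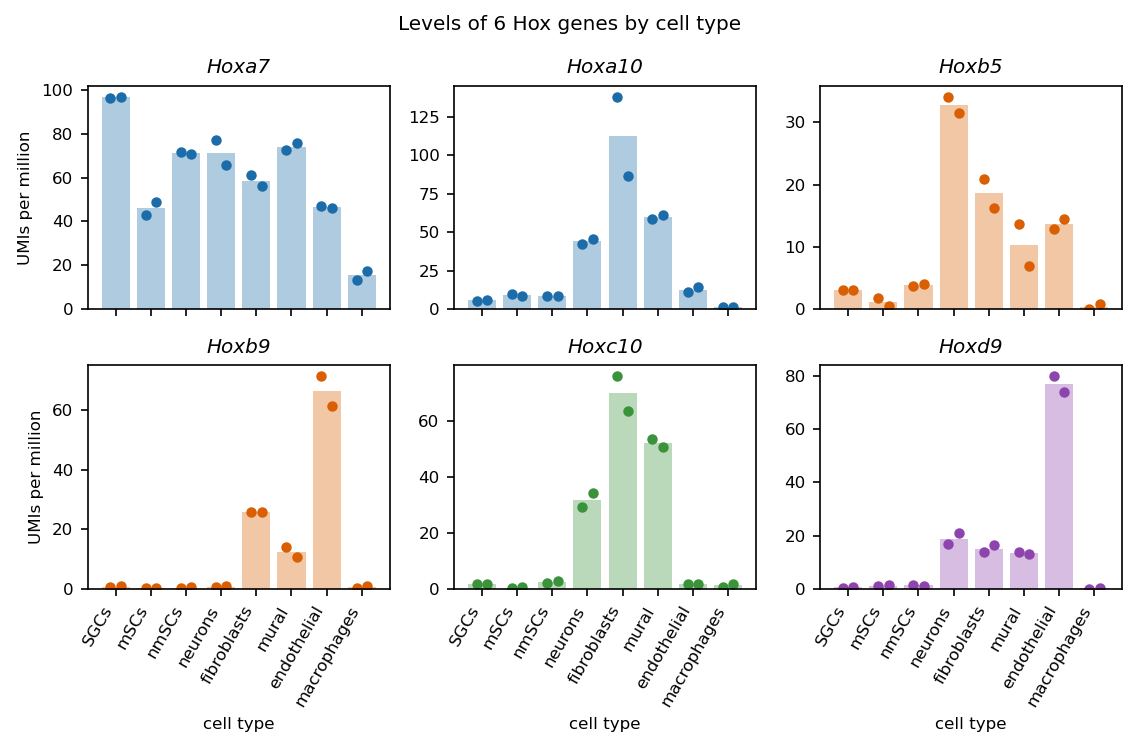
Levels of *Hoxa7*, *Hoxa10*, *Hoxb5*, *Hoxb9*, *Hoxc10* and *Hoxd9* in CPM for the 8 types, with 1 point for each sample and a bar at the mean of the 2. *Hoxa7* is above 10 CPM in all types, *Hoxb9* and *Hoxd9* are highest in endothelial cells, *Hoxc10* in fibroblasts, and *Hoxb5* in neurons.

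Fibroblasts had 26 members above the mean of the other types and 0 below (27.3% and 20.7% of all genes), with a median of 2.04. No member was lower at an unadjusted p under 0.05 or in DESeq2. Those not called included *Hoxa7*, *Hoxd1*, *Hoxd8* and *Hoxd11*. *Hoxc10* had the lowest adjusted p at 76.1 and 63.7 CPM (4.23 ± 0.11), followed by *Hoxc8* at 74.4 and 64.5 CPM (3.73), *Hoxa10* at 138 and 86.3 CPM (3.22), *Hoxb9* (3.88) and *Hoxc9* at 58.5 and 51.7 CPM (2.28). *Hoxa9* also stood high, at 110.0 and 73.0 CPM. *Hoxa11*, a gene of the zeugopod of the limb, was found at 12.9 and 8.63 CPM in fibroblasts and 6.29 and 7.64 CPM in mural cells, and at most 0.0927 CPM elsewhere. Neurons had 0 UMIs of it, which makes fibroblasts at least 21.2-fold higher.

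Mural cells, the smooth muscle cells and pericytes of vessel walls, had 22 members above and 0 below (21.5% and 18.8% of all genes), with a median of 1.32, or 1.27 at the bound. Here too no member was lower at an unadjusted p under 0.05 or in DESeq2. *Hoxb2*, an anterior gene of hindbrain segments, was highest here at 102 and 86.8 CPM (2.76 ± 0.098), against 38.0 and 37.9 CPM in fibroblasts. *Hoxc10* (3.76), *Hoxc8* at 69.4 and 70.9 CPM (3.76), *Hoxc6* at 81.7 and 74.0 CPM (2.40) and *Hoxc5* at 29.9 and 27.8 CPM (2.26) were the others of lowest adjusted p. The annotated span of *Hoxc5* overlaps those of *Hoxc6*, *Hoxc8*, *Hoxc9* and *Hoxc10* on the same strand. The same holds for *Hoxa3* with *Hoxa4*, *Hoxa5* and *Hoxa6*, and for *Hoxd3* with *Hoxd4*. The exonic length shared was 5.37% in *Hoxc5*, 8.70% in *Hoxc10*, 9.26% in *Hoxd3*, 13.2% in *Hoxd4* and 0% in the other genes named here. These counts are uncertain to an extent that was not tested.

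Fibroblasts and mural cells were compared as mesodermal neighbours. Their levels over the 39 genes were alike (r = 0.970, a description across genes), and 10 members were higher in fibroblasts and 3 in mural cells (20.5% and 17.6% of all genes). Higher in fibroblasts were *Hoxa3* at 59.3 and 48.2 against 26.5 and 21.4 CPM (1.14 ± 0.14), *Hoxb6* (1.22 ± 0.17), *Hoxa10* (0.89), *Hoxb9* (1.04) and *Hoxc4* at 65.2 and 47.1 against 33.5 and 30.9 CPM (0.78). Higher in mural cells were *Hoxb2* (-1.32 ± 0.12, adjusted p = 7.86e-08), *Hoxb4* at 55.8 and 49.5 against 37.8 and 34.9 CPM (-0.55) and *Hoxa7* (-0.34). The difference was not shown for *Hoxc8* (-0.02) or *Hoxd9* (0.16), whose samples overlapped.

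Endothelial cells, which line blood vessels, had a pattern of their own, with 14 members above and 8 below the other types (25.8% and 25.3% of all genes) and a median of 0.56, or 0.84 at the bound, and of 0.91 in replicate 1 alone and 0.38 in replicate 2 alone. Of the HoxB genes 7 of 8 were higher, of the HoxD genes 5 of 7, and all 6 tested HoxC genes were lower. *Hoxb9* had the lowest adjusted p (5.41 ± 0.15), then *Hoxd9* at 79.9 and 73.8 CPM (4.82 ± 0.14), *Hoxd8* at 109 and 86.2 CPM (3.29 ± 0.11), *Hoxd4* at 44.2 and 39.7 CPM (4.96 ± 0.19) and *Hoxb7* at 41.9 ± 0.174 CPM (SD, n = 2) (1.77 ± 0.11). *Hoxd3*, which takes part in the angiogenic state of endothelial cells, stood at 24.1 and 24.3 CPM, against at most 13.9 CPM in neurons. The HoxC genes ranged from 1.32 to 5.19 CPM, with *Hoxc9* (-2.99 ± 0.25), *Hoxc6* (-2.48), *Hoxc4* (-2.98), *Hoxc5* (-2.58) and *Hoxc10* (-1.78) called lower. Over the 39 genes endothelial cells were the least like each of the other 7 types (r from 0.541 to 0.658, a description).

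Macrophages had 0 members above and 23 below the other types (24.6% and 22.6% of all genes), with a median of -2.40, or -2.27 at the bound. At an unadjusted p under 0.05, 1 member was higher, and 0 were in DESeq2. *Hoxa7* was the highest at 13.4 and 17.7 CPM (-1.78 ± 0.14), with *Hoxd8* (-3.26), *Hoxb2* at 3.82 and 4.08 CPM (-2.14), *Hoxb3* (-2.87) and *Hoxc9* (-2.34) next by adjusted p. Of their 59.6 and 83.8 *Hox* CPM, the estimated share of empty-droplet RNA accounted for 11.1 and 8.75 CPM. The macrophage profiles also carried 1708 and 2341 CPM summed over 6 SGC markers, against 13200 and 13696 CPM in SGCs, and their *Hox* levels were most like those of SGCs (r = 0.949). The part of SGC RNA in the macrophage values was not tested.

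Members were ranked per exonic kilobase and by CPM. In these 3′ libraries a longer gene need not give more UMIs, so a rank per kilobase can favour short genes. Per exonic kilobase *Hoxa7* led in SGCs (33.6 CPM per kilobase), both Schwann types, neurons (24.7) and macrophages (5.39). The second member was *Hoxb7* in SGCs (14.2) and non-myelinating Schwann cells (10.9), *Hoxc6* in myelinating Schwann cells, *Hoxc10* in neurons (16.6) and *Hoxb4* in macrophages (4.07). By CPM these ranked 3 in SGCs, 7 in non-myelinating and 4 in myelinating Schwann cells, 6 in neurons and 2 in macrophages. The mesodermal types were led by others, fibroblasts by *Hoxc10* and *Hoxa10* (36.6 and 34.3), mural cells by *Hoxc6* and *Hoxc10* (32.3 and 27.4) and endothelial cells by *Hoxd9* and *Hoxd8* (36.0 and 35.5). By mean CPM the leaders were *Hoxa10* in fibroblasts (112), *Hoxb2* in mural cells (94.2) and *Hoxd8* in endothelial cells (97.4). *Hoxa7* led the other types by CPM as well, and *Hoxa9* was second in neurons (64.4).

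*Hoxb3*, a hindbrain and neck gene, ran from fibroblasts (32.4 and 25.9 CPM) through mural cells (24.6 and 21.1 CPM) and endothelial cells (18.6 and 18.0 CPM) to SGCs (10.1 and 9.92 CPM), with no overlap between these neighbours, while non-myelinating Schwann cells, neurons and myelinating Schwann cells lay below, each overlapping its neighbour in that order. *Hoxa5*, a gene of the lower neck and lung, stood at 28.1 and 19.4 CPM in fibroblasts and 13.7 and 20.9 CPM in endothelial cells, which overlapped, and at 12.4 and 9.89 CPM in neurons against 4.03 and 4.39 CPM in SGCs. *Hoxc4* was highest in fibroblasts (65.2 and 47.1 CPM), followed by mural cells (33.5 and 30.9 CPM), neurons (22.7 and 23.8 CPM), non-myelinating Schwann cells (22.6 and 21.5 CPM) and SGCs (19.8 and 18.8 CPM), and lowest in endothelial cells (2.14 and 2.91 CPM), with no overlap between neighbours. *Hoxc6* followed the same order at the top, apart from mural cells (81.7 and 74.0 CPM) and fibroblasts (76.9 and 64.2 CPM), whose samples overlapped. *Hoxa9* stood at 71.2 and 57.5 CPM in neurons, below mural cells (73.1 and 79.8 CPM) without overlap, and at 15.9 to 23.6 CPM in glial and endothelial profiles.

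*Hoxa2*, *Hoxa4* and *Hoxa6* were low throughout. *Hoxa2*, which acts in hindbrain segments, reached 2.58 CPM at most, *Hoxa4* 2.78 CPM and *Hoxa6* 5.94 CPM. They were nevertheless called lower in crest than in mesodermal types (log2 fold changes -1.77 ± 0.41, -0.77 ± 0.28 and -1.39 ± 0.34, SE).

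Genes of 1 cluster tended to share a pattern. For the 23 members that reached 10 CPM, the most similar member by correlation of log2(CPM + 1) over the 16 profiles lay in the same cluster for 20. It was the neighbouring paralog for 8 of these. *Hoxc5* and *Hoxc6* were the closest pair (r = 0.987), and *Hoxd3* and *Hoxd4* (r = 0.963) and *Hoxc8* and *Hoxc10* (r = 0.962) were also close. The annotated spans of *Hoxc5* and *Hoxc6*, and of *Hoxd3* and *Hoxd4*, overlap on the same strand, so the values of these pairs are uncertain. The exceptions were *Hoxa3* with *Hoxb3*, *Hoxa5* with *Hoxb6* and *Hoxb5* with *Hoxa5*, and *Hoxa7* was the least like any other (r = 0.658 with *Hoxa9*). The 16 profiles are 8 types in 2 samples and share their libraries, so these values are descriptions.

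Within fibroblasts the *Hox* level differed between 2 clusters of cells, made without any *Hox* gene. One was led by *Igfbp6*, *Mgp* and *Ecrg4* and the other by *Apod*, *Dcn* and *Tgfbi*. The total was 1549 and 1225 CPM in the *Igfbp6*-led cells and 644 and 623 CPM in the *Apod*-led cells. Only the *Igfbp6*-led total lay above those of mural and endothelial cells. Of the 23 members, 22 were higher in the *Igfbp6*-led cells in both samples. The share of all genes that were higher there was not computed, so the counts and ratios here do not show a difference particular to *Hox* genes. Of the 22 with UMIs in every profile, 8 were more than 2 times higher in both, and the median ratio was 2.09 and 1.81. *Hoxa10* stood at 232 and 145 CPM against 36.7 and 35.3 CPM, a ratio of 6.31 and 4.12, and the far lower *Hoxd4* at 13.1 and 10.7 CPM against 2.35 and 2.40 CPM, a ratio of 5.56 and 4.46. The exception was *Hoxb8*, at 32.7 and 24.9 against 27.9 and 25.3 CPM, while *Hoxd3* had 0 UMIs in the *Apod*-led cells of replicate 1 and so no ratio there. The 8 fibroblast markers summed to 16949 and 17106 CPM in the *Igfbp6*-led and 37493 and 34799 CPM in the *Apod*-led cells. The 6 markers fixed for perineurial cells, which form the sheath of nerve fascicles, summed to 556 and 668 CPM in the *Igfbp6*-led and 141 and 182 CPM in the *Apod*-led cells, where *Moxd1* and *Msln* were at 0. The part of perineurial cells in these values was not tested.

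**Figure D5:**
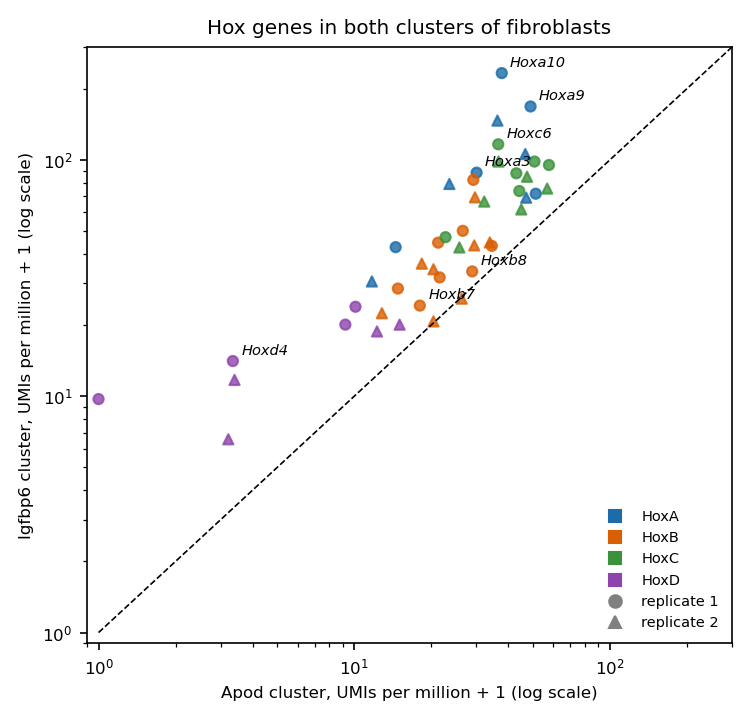
Levels of the 23 *Hox* genes that reached 10 CPM in the *Igfbp6*-led against the *Apod*-led fibroblasts, in CPM, with 1 point for each sample. Most genes lie above equality and *Hoxa10* (ratios of 6.31 and 4.12) and *Hoxd4* (5.56 and 4.46) are the farthest with UMIs in every profile.

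The share of cells with at least 1 *Hox* UMI was compared after each cell was thinned to 3000 UMIs. The share was 90.5% and 90.6% in mural cells, 90.1% and 87.3% in fibroblasts, 82.8% and 82.6% in endothelial cells and 73.8% and 74.6% in neurons. It was 59.4% and 58.6% in SGCs, 55.6% and 56.4% in non-myelinating and 40.6% and 40.1% in myelinating Schwann cells. In macrophages, the type nearest to no expression, it was 13.5% and 9.70% at median depths of 11276.5 and 11113 UMIs before thinning, against 14751 and 15756.5 UMIs in SGCs. The order of types followed the CPM order except that mural cells and fibroblasts changed places, with intervals that overlapped. Without thinning the shares were 96.9% and 97.2% in SGCs, 31.0% and 37.0% in macrophages and 41.9% and 51.2% in neurons, of which 295 and 101 cells were too shallow to be thinned.

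Partners and regulators of *Hox* genes were examined from lists. TALE homeodomain proteins bind DNA together with Hox proteins, and 2 of the 9 tested were higher and 4 lower in crest than in mesodermal types, where 29.8% and 29.3% of all genes were. The counts of the lists below are to be read against the same shares. *Meis2* stood at 186 and 267 CPM in endothelial cells and at most 16.8 CPM elsewhere (-4.56 ± 0.30). *Pbx3* was lower (-0.55), *Pbx4* (1.62) and *Meis3* (0.57) were higher, and *Pknox2* showed 0.07. Of 18 Polycomb and Trithorax genes, which keep *Hox* chromatin off or on, 5 were higher, near the share of all genes, and 7 lower. *Psip1* (0.65 ± 0.059) and *Ezh2*, the H3K27 methyltransferase, were higher (0.56 ± 0.071). *Kdm6b*, a demethylase of the same mark, was lower (-0.94 ± 0.063), as were *Jarid2* (-0.77) and *Kdm6a* (-0.24), and *Kmt2a* showed -0.06.

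Of 10 listed genes that act in posterior or limb identity in the embryo, 4 had no UMI and only *Nr6a1* and *Gdf11* could be tested. *Nr6a1*, a nuclear receptor of the trunk program, was higher in crest types (0.82 ± 0.064), at 246 and 256 CPM in SGCs and 69.4 and 91.6 CPM in fibroblasts. *Gdf11*, a secreted factor of the trunk-to-tail transition, was lower (-0.69 ± 0.14). The hindlimb genes *Tbx4* and *Pitx1* had 4 and 6 UMIs. Of 9 tested noncoding RNAs of the *Hox* clusters, 1 was higher and 6 were lower, against 29.8% and 29.3% of all genes. *Hoxb3os* was higher (0.82 ± 0.10), at 73.5 and 68.0 CPM in SGCs and 5.95 and 7.59 CPM in neurons, while mural cells held 83.8 and 68.8 CPM. *Gm53*, in the HoxB cluster near *Hoxb9*, was lower (-5.29 ± 0.40), with 61.6 and 53.7 CPM in endothelial cells and at most 6.75 CPM elsewhere. *Hoxd3os1* (-1.85 ± 0.13) and *Hotairm1* (-0.72 ± 0.079) were also lower, and *Hoxd3os1* was highest in endothelial cells at 32.3 and 33.6 CPM, then neurons at 16.2 and 14.5 CPM.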

How the data were processed

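The deposited files held raw UMI counts per gene for all barcodes, made by the authors with Cell Ranger 7.1.0 (file header) on mm10 (submitters' processing notes); the annotation version is not given in the sources used here. Filtered cells and cell types were not used here, so cells were called again along the Cell Ranger steps (FDR 0.01), kept with more than 300 genes, normalised with SCTransform 0.4.2 and clustered with Seurat 5.3.0 at resolution 0.8 without integration. *Hox* genes and noncoding RNAs of the clusters were kept out of the variable genes. Clusters were removed if at least 5 of their top 10 genes were mitochondrial or if over 50% of their cells were called doublets. Cells over 5 median absolute deviations of UMIs (neurons excepted) or of mitochondrial share were also removed. Clusters with mixed markers were kept. Doublets were called with Scrublet in 2.65% and 3.18% of cells and otherwise kept, and 2 clusters of 1984 cells stayed unnamed. Types carry rebuilt names that may differ from those of the study.

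UMIs were summed per sample and type, and cells were not treated as replicates. edgeR 4.0.16 quasi-likelihood tests with TMM scaling were fitted over all 16 profiles with 1 coefficient per type, and Benjamini-Hochberg adjustment covered the 17899 genes that had 10 UMIs or more in 2 or more profiles, with a threshold of 0.05. Means over types in a comparison are means of these coefficients on the log scale. The adjusted p-values given are from this fit, and log2 fold changes carry their standard errors. Levels are CPM of the untransformed profile. DESeq2 1.42.0 and the alternatives listed in the closing section were computed with it, and the steps were tested on simulated data. Profiles with the same replicate number came from the same library, which the main fit did not include. Their deviations from the type means correlated with a median of 0.04 over 28 pairs of types (-0.02 to 0.14). A fit with a replicate block is given in the closing section.

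The members and lists were chosen with earlier results of these data known. Genes named were those with at least 2% of the *Hox* UMIs of a type in both samples and, for each test, up to 5 of lowest adjusted p per direction; list genes were up to 4 of highest level and 2 past the threshold per direction. *Hoxa11*, *Hoxd11*, the other genes under 10 CPM, the untested genes and the largest exceptions were named after their values were seen. Values of some genes are not reported here.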

Additional observations from a re-analysis of the deposited data

Results flagged for a closer look

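The unnamed clusters and the empty droplets, which lie outside the 8 types, carried *Hox* transcripts above the limit that a count of 0 allows, and they entered no comparison. An unnamed cluster of 1543 cells led by *Pou3f1*, a transcription factor of Schwann cell development, had a mean *Hox* level of 307 CPM, with 307 and 308 CPM in the 2 samples and HoxA shares of 46.8% and 47.6%. An unnamed cluster of 441 cells led by *Cd74*, the MHC class II invariant chain, had a mean of 127 CPM, with 128 and 126 CPM. Empty droplets had a mean of 366 CPM, with 385 and 346 CPM.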

How the results depend on the processing

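Among 81 results for named genes, 1193 of 1211 values under the alternatives kept their direction and their side of the threshold, 18 lost the threshold and 0 reversed, and no count below changed direction. The alternatives were DESeq2, scaling by total UMIs, no filter on low counts, the replicate block, clustering on UMI totals or at resolution 0.4 or 1.2, cells of at least 3000 UMIs, removal of called doublets and subtraction of empty-droplet RNA. Those chosen after seeing the data left out shared barcodes or their shallow copies, applied the UMI cutoff to neurons too, or dropped neurons or fibroblasts from the crest contrast. Without called doublets 4 members were higher in crest than in mesodermal types, 2 with neurons left out, and 5 were higher in SGCs, and the HoxC share of endothelial cells was 0.696%. DESeq2 put 14 members lower in SGCs. Without shared barcodes 1 member was higher in crest types, 3 were lower in neurons and 4 were higher in SGCs than in neurons. With the UMI cutoff applied to neurons too, 0 were higher in crest types, 2 with fibroblasts left out, 6 were higher and 2 lower in neurons, SGCs against neurons gave 3 higher and 9 lower, and the neuronal HoxD share was 13.4%. The HoxA share of SGCs was 49.8% and 49.4% at resolutions 0.4 and 1.2 and 42.3% per exonic kilobase. Thinned to 1000 UMIs, the share of cells with a *Hox* UMI was 26.1% in SGCs, 16.9% and 23.6% in myelinating and non-myelinating Schwann cells, 37.3% in neurons, 55.0% in fibroblasts, 62.8% in mural cells, 44.0% in endothelial cells and 3.62% in macrophages. Scaling by total UMIs moved the median log2 fold change of all genes by -0.12 in SGCs, 0.14 in non-myelinating Schwann cells, -0.28 in macrophages and -0.16 for SGCs against neurons, and the share of calls that were higher from 52.0% to 68.1% in non-myelinating Schwann cells and from 52.1% to 35.8% in macrophages. The member median moved by over 1.5 times without called doublets in SGCs (-0.12), neurons (1.12) and endothelial cells (0.97), with the UMI cutoff applied to neurons too in the same 3 types (-0.14, 0.29 and 0.91), and with total UMIs in SGCs (-0.36). Fewer cells or UMIs enter the alternatives that drop cells or thin them, by construction. Scaling by total UMIs uses the same cells and UMIs as the main fit. The cause of the other changes was not tested. With the replicate block 24 members were lower and 2 higher in crest types, as without it, and no other count moved by over 1.5 times. Profiles with the same number share a library, and their deviations from the type means correlated with a median of 0.04. With either sample left out no spread can be estimated, and in each sample alone the called genes kept their direction in every comparison, 26 of 26 for crest against mesodermal types. The calls came from these same 2 samples, so this agreement is a description and not separate support. In macrophages, where 3 UMIs are 1.15 and 1.36 CPM, depth limits what can be seen most.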

Other observations

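The shallow neurons carried *Hox* totals of 496 and 428 CPM and HoxD shares of 14.2% and 9.57%, and the deep neurons 538 and 543 CPM with HoxD shares of 16.5% and 22.0%. The shallow values rest on 176 and 94 *Hox* UMIs.

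The mural cells formed 2 clusters, and the smaller one of 51 cells, led by *Acta2*, carried 972 and 674 *Hox* CPM against 888 and 868 CPM in the larger.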
